A study of Mus musculus with 16 samples.

Results

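YFP+ projection neurons of the basolateral amygdala (BLA) were compared with YFP+ neurons of the gustatory cortex (GC) in mice that had received the taste control, using 4 libraries per region. Genes were matched between the BLA and GC tables by name and identifier, and the 15085 of 31469 entries with mean TPM (transcript share scaled to the same total in every library) of 1 or more over the 8 libraries were compared. Both groups came from mice of the YFP-H line (B6.Cg-Tg(Thy1-YFP)HJrs/J), stated to be male for the BLA sort, 60 to 80 days old, which drank 0.5% saccharin for 30 min, received saline i.p. and had their brains taken 4 hr after training. All groups carry the YFP transgene, which the Thy1 promoter expresses in part of the excitatory neurons, so Thy1 itself is no independent mark of the sorted cells. In the other 8 libraries of the series, lithium chloride in place of saline followed the taste, which is conditioned taste aversion (CTA) training. The YFP+ cells of the GC are described by the study as layer 5 pyramidal neurons.

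The BLA and the cortex both derive from the pallium, and their projection neurons share glutamatergic transmission and many genes for synapses and dendrites. They differ in developmental transcription factors, which set cell identity and layer, and in the channels, receptors and adhesion molecules that such factors regulate. The GC, a part of the insular cortex, processes taste, while the BLA links tastes to their consequences, and both take part in taste aversion learning.

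The expression of each gene was compared as log2(TPM + 1), and a gene was called different at a limma adjusted p under 0.05. A difference is given as BLA minus GC with its standard error (SE), and on this scale it understates the change of genes of low level. TPM add up to the same total in every library and the number of reads of each library is unknown. Only the spread between libraries therefore shows how precise a value is. Between 15850 and 17202 entries were above 0 in the BLA libraries and between 17982 and 18340 in the GC libraries. BLA library 3 had the fewest, and Thy1 took 66726 to 83148 TPM in the BLA against 29844 to 53946 TPM in the GC. Pearson's r across genes was 0.85 to 0.89 between BLA libraries, 0.91 to 0.93 between GC libraries and 0.82 to 0.89 between the regions. The 2 regions stand in separate tables, so region and whatever else differed between their preparation cannot be told apart. The labels do not say which libraries of the 2 regions share a mouse.

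Of the 15085 genes, 1203 (7.97%) differed between the regions, 276 of them (1.83%) higher in the BLA and 927 (6.15%) higher in the GC. The 4 libraries of a region lay entirely above the 4 of the other for 2434 genes (16.1%), with 530 (3.51%) above in the BLA and 1904 (12.6%) above in the GC. The median difference over all genes was −0.25. It was −0.38 for genes with a mean of 1 to 5 TPM and −0.04 for those of 100 TPM or more. Dividing each library by its median-ratio size factor moved the median over all genes to −0.02. After that rescaling 1014 genes (6.72%) were called, of which 452 (3%) were higher in the BLA and 562 (3.73%) higher in the GC, so the split between the directions depends on the scaling. All 276 genes higher in the BLA and 562 of the 927 higher in the GC remained called. Without GC library 1, 2, 3 or 4 the calls numbered 693, 677, 786 and 695, and without a BLA library between 1049 and 1126. Of the 31469 entries, 150 were above 0 in all GC libraries and listed at 0 in all BLA libraries, against 8 the other way, and 11 of the 150 averaged at least 10 TPM.

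**Figure D1:**
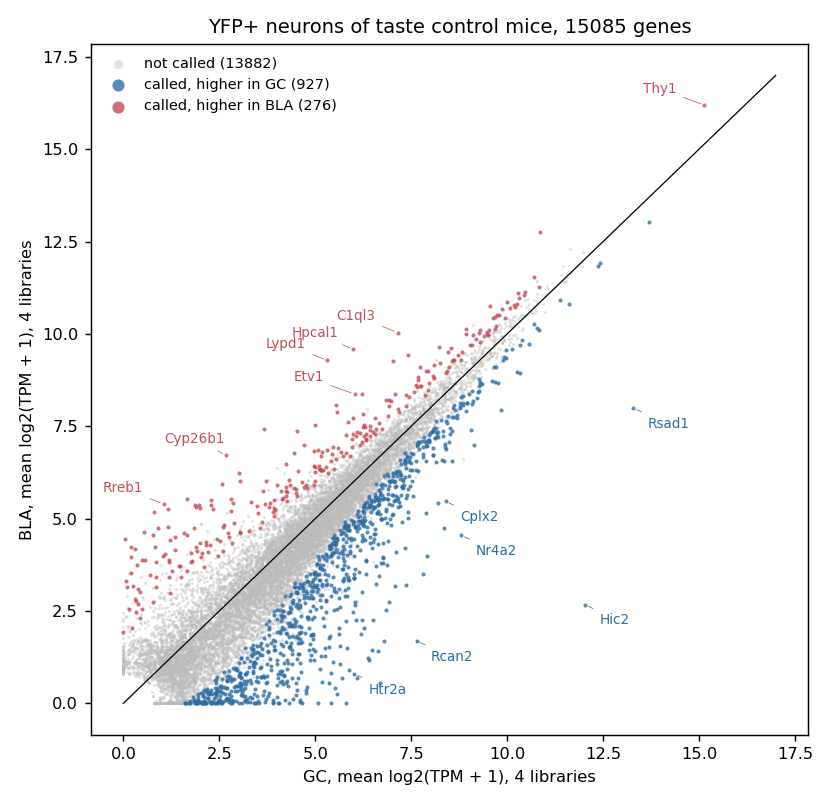
Mean log2(TPM + 1) of each of 15085 genes in the 4 GC libraries (x axis) and the 4 BLA libraries (y axis) of taste control mice, with the line of equal levels. Red points mark the 276 genes called higher in the BLA, blue points the 927 called higher in the GC, and grey points the rest, and Hic2 lies farthest below the line.

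The genes that stood out most in the BLA included an acetylcholine receptor modulator, a retinoic acid degrading enzyme and several transcription factors. Lypd1, a GPI-anchored protein of the Ly6 family that binds nicotinic acetylcholine receptors, had 706, 723, 430 and 681 TPM in the 4 BLA libraries and 29.6, 60.2, 34.6 and 36.8 TPM in the GC. Its level was high in every BLA library, library 3 being the lowest, and the difference was 3.97 ± 0.25 (SE, n = 4 per region, limma adjusted p = 1e-05). Hpcal1, a calcium sensor of the visinin-like family, had 747, 742, 645 and 970 TPM in the BLA against 31.9, 82.8, 67.5 and 83.3 TPM in the GC (difference 3.60 ± 0.28, limma adjusted p = 3.7e-05). Neither gene overlapped between the regions, which the choice of the leading genes required.

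Cyp26b1, which breaks down retinoic acid, had 111, 101, 135 and 77.4 TPM in the BLA and 10.1, 2.52, 4.37 and 6.91 TPM in the GC (difference 4.04 ± 0.37, limma adjusted p = 9.1e-05). The zinc finger factor Rreb1 had 26.8, 44.8, 41.2 and 57.1 TPM against 1.09, 1.01, 0.93 and 1.27 TPM (difference 4.34 ± 0.38, limma adjusted p = 6.5e-05). Rreb1 stayed near 1 TPM in all 4 GC libraries. Ankfn1, an ankyrin repeat gene, had 46.5, 14.1, 61.4 and 37.5 TPM in the BLA and at most 1.77 TPM in the GC, with the largest difference toward the BLA among these 12 genes (4.38 ± 0.54, limma adjusted p = 0.00053).

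Ptprc encodes CD45, a phosphatase best known from leukocytes and microglia. It had 39.6, 31.3, 74.7 and 46.0 TPM in the BLA and 1.22, 3.57, 3.85 and 1 TPM in the GC (difference 3.88 ± 0.44, limma adjusted p = 0.00032). Its level was high in every BLA library. The summed level of 12 microglia markers was 21.3 to 32.1 TPM in the BLA and 26.4 to 99.4 TPM in the GC. The defining microglia gene C1qa was listed at 1.66, 0.21, 0 and 0 TPM in the BLA and at 1.53, 2.26, 1.06 and 1.41 TPM in the GC. Which cells the Ptprc transcripts came from was not tested.

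Of the other leading BLA genes, Spink8, a Kazal-type protease inhibitor, had 145 to 212 TPM in the BLA and 3.92 to 18.4 TPM in the GC (difference 3.77 ± 0.39, limma adjusted p = 0.0002). Tmem255a, a membrane protein, had 50.8 to 79.0 TPM against 2.99 to 11.8 TPM. Mir670, a microRNA precursor entry, had 15.9 to 53.5 TPM against 0 to 2.65 TPM. It overlaps an exon of Mir670hg in the annotation, so reads there could come from either. The small GTPase Rasl11a had 29.5 to 43.2 TPM in the BLA, and in the GC 0.75, 0.60, 1.93 and 22.7 TPM. GC library 4 thus came close to the BLA range, and without GC library 1 Rasl11a was no longer called (difference 3.04, limma adjusted p = 0.0553). The 12 leading BLA genes were chosen as those of at least 30 TPM with the largest differences and no overlap.

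**Figure D2:**
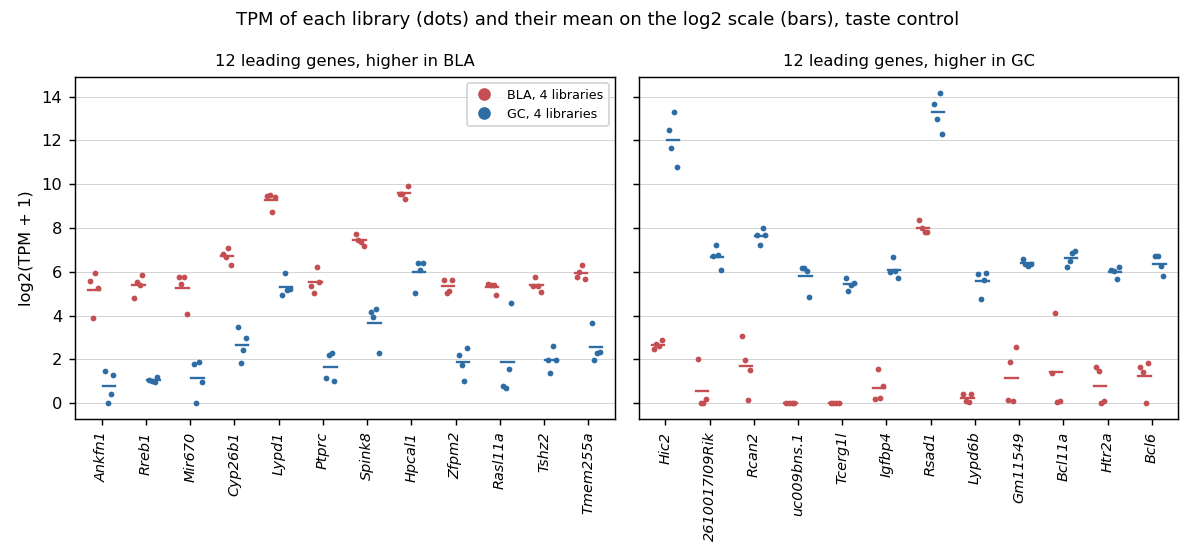
TPM of every library on a log2(TPM + 1) axis for the 12 genes with the largest differences toward each region, BLA in red and GC in blue, with a bar at the mean of 4 libraries. The genes were chosen to have no overlap between the groups, and Rasl11a in GC library 4 (22.7 TPM) lies close to its BLA values.

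The largest difference toward the GC was that of Hic2, a zinc finger repressor, which had 4.58, 5.49, 5.20 and 6.43 TPM in the BLA and 5676, 3188, 9962 and 1739 TPM in the GC (difference −9.36 ± 0.42, limma adjusted p = 6.6e-07). Rsad1, a gene of the radical SAM family, had 325, 257, 222 and 223 TPM in the BLA and 13125, 8155, 18557 and 5073 TPM in the GC (difference −5.30 ± 0.32, limma adjusted p = 1e-05). The pair ranked the GC libraries in the same order, library 3 highest and library 4 lowest, and GC library 3 also had the highest Thy1 of the GC, with 53946 TPM. In the separate CTA libraries Hic2 differed by −10.82 and Rsad1 by −5.83.

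The leading GC genes were chosen in the same way, with at least 30 TPM in the GC, the largest differences and no overlap. Several of them were close to absent in the BLA. Rcan2, a regulator of the phosphatase calcineurin, had 7.46, 2.98, 0.10 and 1.91 TPM in the BLA and 202, 150, 252 and 205 TPM in the GC (difference −5.95 ± 0.51, limma adjusted p = 5.6e-05). Igfbp4, a secreted binding protein for insulin-like growth factors, had 0.14, 1.92, 0.20 and 0.74 TPM against 63.4, 100.4, 64.0 and 51.4 TPM (difference −5.40 ± 0.43, limma adjusted p = 3.7e-05). Tcerg1l was listed at 0 in all 4 BLA libraries and had 51.0, 33.4, 41.0 and 44.0 TPM in the GC (limma adjusted p = 2.9e-05). The groups of all 3 genes were far apart in every library. The transcript uc009bns.1, which carries no gene name in the table, was listed at 0 in the BLA and had 28.0 to 72.0 TPM in the GC, and the gene model Gm11549 had 0.07 to 4.94 TPM against 76.3 to 94.0 TPM.

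The Ly6 family also supplied a gene of the opposite pattern to Lypd1. Lypd6b had 0.36, 0.09, 0.05 and 0.33 TPM in the BLA and 58.4, 26.2, 49.0 and 60.1 TPM in the GC (difference −5.30 ± 0.42, limma adjusted p = 3.7e-05). Htr2a, the serotonin 2A receptor, had 2.15, 1.75, 0 and 0.06 TPM in the BLA against 66.7, 64.4, 50.8 and 74.7 TPM in the GC (difference −5.21 ± 0.46, limma adjusted p = 6.7e-05). With 4 libraries against 4, a two-sided exact permutation test of a single gene cannot give a p below 0.0286.

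Most markers of pallial amygdala neurons that were called were higher in the BLA. The list includes Lypd1 and Cyp26b1 from the leading BLA genes, and it was chosen with earlier results of these data known. Of 16 members tested of 19 listed, 9 were called higher in the BLA and 1 higher in the GC (1.83% and 6.15% of all genes). Their median difference was 1.18 against −0.25 over all genes. The same numbers were called after median-ratio rescaling (3% and 3.73% of all genes). Etv1, an ETS transcription factor, had 323, 270, 367 and 371 TPM in the BLA and 67.7, 62.9, 81.0 and 49.1 TPM in the GC (difference 2.35 ± 0.19, limma adjusted p = 4.8e-05). Lmo3, a LIM-domain cofactor, had 514, 531, 401 and 600 TPM against 237, 307, 191 and 218 TPM (difference 1.11 ± 0.18, limma adjusted p = 0.0031). Cdh9, a cadherin, had 110, 107, 146 and 128 TPM against 40.8, 41.7, 36.7 and 55.9 TPM (difference 1.47 ± 0.21, limma adjusted p = 0.0014). The 3 genes were thus well above 0 in the GC too, and their groups stayed apart. Rspo2, a defining member that amplifies Wnt signals, had 65.7 to 119 TPM in the BLA and 8.47 to 29.6 TPM in the GC (difference 2.25 ± 0.38, limma adjusted p = 0.0038). Meis2, a TALE homeodomain factor on the same list, went the other way, with 2.56, 3.58, 0.02 and 0.16 TPM in the BLA and 62.6, 43.3, 45.1 and 48.6 TPM in the GC (difference −4.59 ± 0.52, limma adjusted p = 0.00032). The abundant member Dkk3, a secreted Wnt modulator, had 286 to 341 TPM against 354 to 414 TPM and was not called (limma adjusted p = 0.3).

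Of 17 markers of layer 5 extratelencephalic neurons tested, 10 were called higher in the GC and 0 in the BLA (6.15% and 1.83% of all genes), 9 and 0 after median-ratio rescaling, with a median difference of −1.78. The most abundant members overlapped between the regions. Ldb2, a LIM-domain binding cofactor, had 198 to 314 TPM in the BLA and 198 to 297 TPM in the GC, and Crym, a thyroid hormone binding protein, had 120 to 158 TPM against 111 to 154 TPM. Fezf2, the factor that specifies subcortically projecting neurons, had 97.0, 100.15, 51.1 and 106 TPM in the BLA and 129, 159, 187 and 111 TPM in the GC, and was not called (limma adjusted p = 0.11). The defining member Bcl11b had 22.8 to 36.2 TPM in the BLA and 30.5 to 50.9 TPM in the GC, with overlap (limma adjusted p = 0.3). Pou3f1, a POU factor of layer 5 neurons, was at or near 0 in the BLA (0.09, 0, 0 and 0 TPM) and had 28.1, 21.2, 26.1 and 18.9 TPM in the GC (difference −4.57 ± 0.40, limma adjusted p = 6.5e-05). Bcl6, a transcriptional repressor, had 0 to 2.59 TPM against 55.0 to 104 TPM. The heparan sulfate sulfatase Sulf2 had 23.9, 8.94, 11.7 and 26.7 TPM in the BLA and 129, 159, 162 and 107 TPM in the GC (difference −3.01 ± 0.34, limma adjusted p = 0.00032).

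Most called markers of other cortical layers were higher in the GC. Of 13 layer 6 and claustrum markers tested, 7 were called higher in the GC and 1, Rprm, in the BLA (6.15% and 1.83% of all genes). The summed level of the list's 14 genes was 252 to 359 TPM in the BLA and 1009 to 1285 TPM in the GC. Nr4a2, an orphan nuclear receptor of deep-layer and claustrum neurons that activity also induces, had 18.1, 51.1, 23.4 and 11.2 TPM in the BLA and 416, 434, 437 and 504 TPM in the GC (difference −4.26 ± 0.35, limma adjusted p = 4.8e-05). Gnb4, a G protein subunit used as a claustrum marker, had 13.1, 7.64, 3.2 and 12.3 TPM against 133, 115, 108 and 200.5 TPM (difference −3.90 ± 0.39, limma adjusted p = 0.00016). Synpr, a synaptic vesicle protein, had 4.06, 25.1, 10.7 and 9.77 TPM against 216, 194, 239 and 252 TPM. These 3 genes were high in every GC library and their groups did not overlap. The defining layer 6 gene Foxp2 had 0 to 0.56 TPM in the BLA and 0.89 to 3.42 TPM in the GC and was not called, and Tle4 had 15.0 to 31.7 TPM against 19.7 to 31.4 TPM. Of 10 markers of layers 2 to 4, 5 were called higher in the GC and 1, Otof, in the BLA (6.15% and 1.83% of all genes). Their summed levels were 73.2 to 128 TPM in the BLA and 254 to 285 TPM in the GC. Rorb, an orphan nuclear receptor of layer 4, had 5.54, 1.68, 4.60 and 0.30 TPM in the BLA and 41.5, 31.6, 22.4 and 25.9 TPM in the GC (difference −3.18 ± 0.53, limma adjusted p = 0.0034). Cux1 had 1.39 to 3.56 TPM against 23.7 to 40.4 TPM, while Cux2, its upper-layer relative, overlapped with 14.7 to 45.9 TPM against 19.5 to 31.6 TPM. Otof and Rprm were the single members higher in the BLA, and neither call held in every fit with 1 library left out. Otof was lost without GC library 1, 2 or 4, and Rprm without any library but BLA library 3. The part that cells of other layers or of the claustrum had in these levels was not tested.

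**Figure D3:**
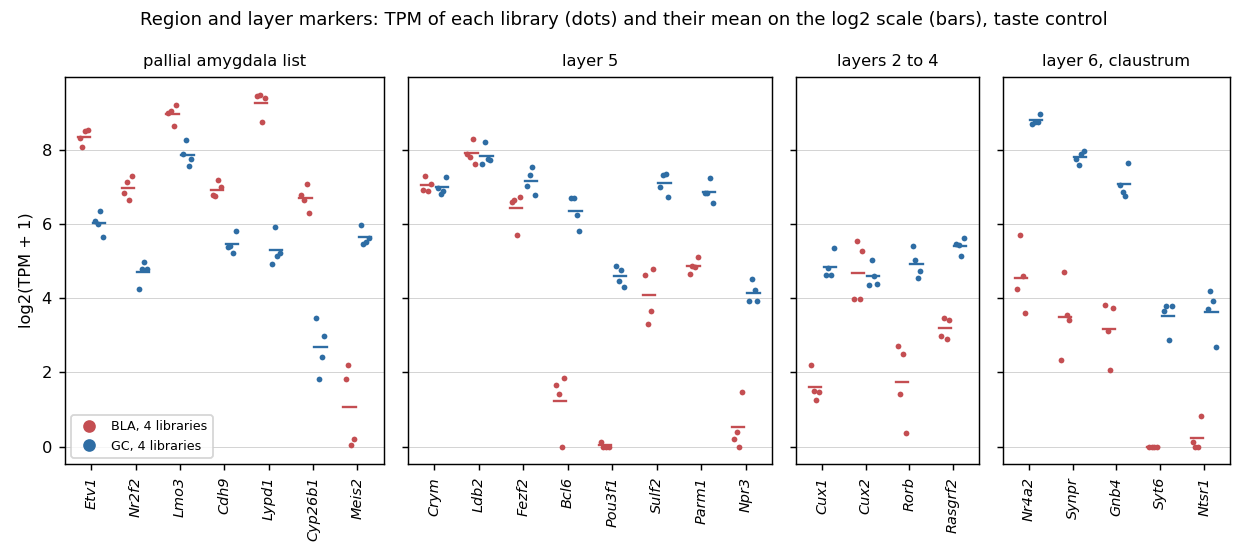
TPM of every library on a log2(TPM + 1) axis for markers of pallial amygdala and of cortical layers, BLA in red and GC in blue, with a bar at the mean of 4 libraries. Crym, Ldb2 and Cux2 overlap between the regions, whereas Nr4a2 (416 to 504 TPM in the GC, 11.2 to 51.1 TPM in the BLA), Pou3f1 and Syt6 are apart in every library.

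General markers of excitatory projection neurons were abundant in both regions. The vesicular glutamate transporter Slc17a7 had 762, 719, 751 and 648 TPM in the BLA and 742, 942, 883 and 844 TPM in the GC and was not called (limma adjusted p = 0.27). Of 15 such markers, 1 (Camkv) was called higher in the BLA and 4 in the GC (1.83% and 6.15% of all genes). After rescaling 1 was called each way (3% and 3.73% of all genes). With 1 library left out, 0 were called in the BLA and 1 (without GC library 2) to 3 in the GC.

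Markers of inhibitory neurons differed in both directions. The summed level of the interneuron list was 235 to 422 TPM in the BLA and 251 to 341 TPM in the GC. Its defining genes for GABA synthesis and transport were scarce, with Gad1 at 0.15 to 1.31 TPM in the BLA and 0.14 to 7.34 TPM in the GC, and Slc32a1 at 0.03 to 5.11 TPM and 0 to 2.61 TPM. Pvalb, a calcium buffer, was listed at 0 in all BLA libraries and had 22.8, 34.1, 56.5 and 25.9 TPM in the GC (limma adjusted p = 5.6e-05). Reln, a secreted glycoprotein, had 0.02 to 2.18 TPM in the BLA and 18.7 to 44.5 TPM in the GC (difference −4.34 ± 0.52, limma adjusted p = 0.00044). Lamp5, a membrane protein also found in excitatory neurons, had 51.0 to 62.7 TPM against 123 to 168 TPM. In the opposite direction, Npy, which encodes neuropeptide Y, had 245, 193, 169 and 177 TPM in the BLA and 42.8, 98.2, 71.0 and 33.9 TPM in the GC (difference 1.76 ± 0.30, limma adjusted p = 0.0042). In all, 2 of 11 members tested (Npy and Calb2) were called higher in the BLA and 3 in the GC (1.83% and 6.15% of all genes). When any library but BLA 3 or 4 was left out, 1 was called in the BLA.

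Glial and vascular markers were measured as a check of the sort. Summed levels were 242 to 355 TPM in the BLA and 364 to 680 TPM in the GC for 13 astrocyte markers, 18.3 to 169 and 128 to 457 TPM for 16 oligodendrocyte markers, and 2.93 to 32.0 and 29.7 to 61.2 TPM for 13 endothelial and mural markers. The defining astrocyte gene Gfap was at 0 to 1.72 TPM in the BLA and 0.04 to 12.9 TPM in the GC. Aldoc, a glycolytic enzyme of astrocytes, was called higher in the GC, with 33.8, 0.67, 0.62 and 4.64 TPM against 95.7, 156, 64.2 and 65.8 TPM (difference −4.23 ± 0.82, limma adjusted p = 0.0081). Of the astrocyte list 1 of 11 was called higher in the BLA and 3 in the GC (1.83% and 6.15% of all genes). The GC count was 1 after rescaling or without BLA library 2 or 4 or GC library 1, 2 or 4. The BLA count was 0 without BLA library 1 or GC library 1, 3 or 4. Of the other cell type lists, 1 of 14 oligodendrocyte markers (Mbp), 1 of 10 microglia markers (Trem2), 2 of 6 endothelial and mural markers (Itm2a and Ly6c1) and 0 of 3 red blood cell markers were called higher in the GC (6.15% of all genes), and 0 in the BLA. The oligodendrocyte count was 0 without GC library 2 or 4 and 2 without BLA library 1, the microglia count 0 without GC library 2 or 3, and the vascular count 1 after rescaling or without any library but GC library 4. Of central amygdala, intercalated and striatal markers, 2 of 11 (Gpr6 and Rgs9) were called higher in the GC and 0 in the BLA (6.15% and 1.83% of all genes). The GC count was 1 without GC library 2 or 3 and 4 without BLA library 1. Summed levels of this list were 35.8 to 152 TPM in the BLA and 111 to 210 TPM in the GC. The part of these cells in the regional differences was not tested.

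Transcription factors of forebrain patterning differed in both directions. Of 49 tested, 9 were called higher in the BLA and 18 in the GC (10 and 15 after rescaling), against 1.83% and 6.15% of all genes. On the BLA side, besides Etv1 and Lmo3, stood Nr2f2, the orphan nuclear receptor COUP-TFII, with 115, 141, 99.3 and 156 TPM in the BLA and 18.1, 26.7, 30.7 and 26.7 TPM in the GC (difference 2.28 ± 0.24, limma adjusted p = 0.00021). Tshz2, a teashirt zinc finger factor, had 32.3 to 53.5 TPM in the BLA against 1.59 to 5.13 TPM (difference 3.40 ± 0.38, limma adjusted p = 0.00028). Zfpm2, a cofactor of GATA proteins, had 32.1 to 48.6 TPM against 1.05 to 4.81 TPM (difference 3.48 ± 0.41, limma adjusted p = 0.00039). Rxrg, a retinoid X receptor, had 35.4, 20.6, 17.9 and 36.0 TPM in the BLA and 4.50, 0.22, 1.42 and 0.58 TPM in the GC (difference 3.60 ± 0.53, limma adjusted p = 0.0016).

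On the GC side, Bcl11a, a zinc finger factor of cortical projection neurons, had 1.60, 16.6, 0.05 and 0.06 TPM in the BLA and 73.0, 88.8, 117 and 123 TPM in the GC (difference −5.21 ± 0.75, limma adjusted p = 0.0014). BLA library 2 stood apart from the other 3 for this gene but remained below the GC. The related POU factors followed Pou3f1: Pou3f2 had 0.01 to 0.09 TPM in the BLA and 3.45 to 7.76 TPM in the GC, and Pou3f3 had 3.83, 0.10, 0.04 and 0 TPM against 13.9, 17.7, 19.1 and 23.6 TPM (difference −3.65 ± 0.56, limma adjusted p = 0.0023). The long noncoding RNA gene 2610017I09Rik, annotated as Pantr1, lies beside Pou3f3 on chromosome 1 and was among the leading GC genes, with 3, 0, 0 and 0.13 TPM in the BLA and 106, 148, 107 and 66.5 TPM in the GC (difference −6.15 ± 0.50, limma adjusted p = 4.3e-05). Of the nuclear factor I genes, Nfia had 0.42 to 10 TPM against 37.7 to 112 TPM (difference −3.59 ± 0.59, limma adjusted p = 0.0032), and Nfib had 20.2 to 38.4 TPM against 77.2 to 85.1 TPM (difference −1.59 ± 0.24, limma adjusted p = 0.0022). Pou3f2, Pou3f3, Nfia and Nfib were named after their values had been seen. The pan-cortical factor Neurod6 was at 121 to 268 TPM against 149 to 190 TPM and was not called.

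Of 21 genes of retinoid, thyroid and steroid signaling, 2 (Cyp26b1 and Rxrg) were called higher in the BLA and 3 (Rbp4, Rora and Rorb) in the GC, before and after rescaling. The shares of all genes were 1.83% and 6.15% before rescaling and 3% and 3.73% after it. Without BLA library 4, 5 of the list were called in the GC. The bases before the start sites of regional genes were searched for 3 motifs that transcription factors bind, on both strands of the 250 bases upstream of each RefSeq start site (build GRCm38.p6). CAGATG, a core that proneural basic helix-loop-helix factors bind, was present for 24 of the 169 genes higher in the BLA that have a promoter sequence (14.2%), for 72 of 629 higher in the GC (11.4%) and for 12.3% of 9982 genes tested. AGGTCA, the half-site of nuclear receptors such as the retinoid X receptors and COUP-TFII, was present for 17 (10.1%), 94 (14.9%) and 13% in the same order, and overlap with other motifs was not examined. TGACGTCA, the cAMP response element, was present for 6 (3.55%), 17 (2.7%) and 3.13%. These shares lie near those of all genes tested, and over all 27025 genes with a promoter sequence they were 16.3%, 15.8% and 1.77%. For CAGATG and AGGTCA the upstream sequence of 1 gene higher in the BLA and 1 higher in the GC is shown, to let the same letters be seen before genes of opposite pattern. The motif is in capitals, each sequence runs 5′ to 3′ on the gene's strand and ends at the base before the start site, and none overlaps an annotated exon of its gene. Syn2 (chr6:115238744-115238993, plus strand) and Igfbp4 (chr11:99040994-99041243, plus strand) hold CAGATG or its complement, and Rxrg (chr1:167618015-167618264, plus strand) and Col11a1 (chr3:114030290-114030539, plus strand) hold AGGTCA or its complement. The windows of Syn2 and Rxrg lie before a start site inside the annotated gene, and those before the first start site of both held no match. A match describes the sequence and does not show binding.
Syn2: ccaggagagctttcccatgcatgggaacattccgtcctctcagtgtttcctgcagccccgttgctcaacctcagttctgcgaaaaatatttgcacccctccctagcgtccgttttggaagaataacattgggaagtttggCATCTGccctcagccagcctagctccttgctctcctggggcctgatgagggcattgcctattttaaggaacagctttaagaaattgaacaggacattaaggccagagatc
Igfbp4: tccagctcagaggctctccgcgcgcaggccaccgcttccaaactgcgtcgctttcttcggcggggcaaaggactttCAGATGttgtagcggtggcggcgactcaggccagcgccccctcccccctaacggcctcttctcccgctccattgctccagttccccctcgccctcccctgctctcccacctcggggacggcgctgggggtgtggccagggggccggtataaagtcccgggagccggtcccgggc
Rxrg: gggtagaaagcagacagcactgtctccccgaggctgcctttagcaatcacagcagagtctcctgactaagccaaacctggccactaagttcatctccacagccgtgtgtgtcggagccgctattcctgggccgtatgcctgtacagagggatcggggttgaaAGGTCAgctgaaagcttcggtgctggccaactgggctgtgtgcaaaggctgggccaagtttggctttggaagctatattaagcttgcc
Col11a1: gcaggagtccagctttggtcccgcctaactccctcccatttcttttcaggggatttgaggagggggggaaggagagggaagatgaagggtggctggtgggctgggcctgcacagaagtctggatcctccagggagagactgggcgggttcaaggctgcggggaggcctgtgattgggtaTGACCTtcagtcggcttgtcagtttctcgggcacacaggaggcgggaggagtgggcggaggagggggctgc

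Cell surface and matrix genes set the regions apart in both directions. Of 23 cadherins and protocadherins tested, 4 were called higher in the BLA and 5 in the GC (1.83% and 6.15% of all genes), 5 and 4 after rescaling. Cdh8, a type II cadherin like Cdh9, had 119, 88.2, 96.8 and 167 TPM in the BLA and 42.1, 31.2, 17.1 and 36.6 TPM in the GC (difference 1.88 ± 0.31, limma adjusted p = 0.0031). Cdh6, another type II cadherin, had 0, 0, 0 and 0.31 TPM in the BLA and 26.2, 22.2, 25.7 and 19.8 TPM in the GC (difference −4.51 ± 0.40, limma adjusted p = 6.8e-05). Cdh20 had 0 to 1.43 TPM against 13.2 to 29.1 TPM, and Cdh12 had 1.54 to 3.98 TPM against 18.7 to 27.7 TPM. Each region thus carried type II cadherins that the other had at a lower level.

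Of 61 axon guidance genes tested, 5 were called higher in the BLA and 12 in the GC (1.83% and 6.15% of all genes), but 9 and 10 after rescaling (3% and 3.73%). Leaving out BLA library 1 or GC library 1, 2 or 4 left 3 called higher in the BLA. The semaphorin Sema4g had 43.0, 36.8, 36.6 and 45.4 TPM in the BLA against 8.52, 5.52, 2.41 and 1.75 TPM (difference 3.07 ± 0.43, limma adjusted p = 0.0011). Rgma, a repulsive guidance cue that binds neogenin, had 1.83, 0.20, 0.32 and 1.93 TPM in the BLA and 39.5, 32.4, 25.9 and 40.9 TPM in the GC (difference −4.21 ± 0.45, limma adjusted p = 0.00021). Robo3, a guidance receptor of the Roundabout family, had 0.12, 0, 0 and 0 TPM against 11.3 to 23.6 TPM (difference −3.86 ± 0.44, limma adjusted p = 0.00032). Sema7a and Sema6d were also higher in the GC, at 52.8 to 101 TPM against 15.4 to 25.6 TPM and at 40.5 to 53.0 TPM against 7.69 to 16 TPM.

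Of 62 genes for matrix and secreted signals, 6 were called higher in the BLA and 19 in the GC (1.83% and 6.15% of all genes), 8 and 17 after rescaling, and 12 in the GC without GC library 1. C1ql3, a secreted C1q-like protein that organizes excitatory synapses, had 698, 749, 1601 and 1449 TPM in the BLA and 169, 173, 92.1 and 146 TPM in the GC (difference 2.89 ± 0.29, limma adjusted p = 0.00017). Col11a1, a fibrillar collagen, had 1.16, 0.56, 2.47 and 3.65 TPM in the BLA and 94.3, 85.7, 68.6 and 108 TPM in the GC (difference −5.04 ± 0.40, limma adjusted p = 3.7e-05), and Col6a1 had 2.13 to 7.03 TPM against 42.6 to 62.6 TPM. Both of these collagens were low in every BLA library.

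Of 17 GABA receptor genes tested, 2 were called higher in the BLA and 5 in the GC (1.83% and 6.15% of all genes), 2 and 4 after rescaling. Without BLA library 4 or GC library 2 or 4, 1 was called in the BLA. Gabra2, an alpha subunit of synaptic receptors, had 140, 112, 165 and 215 TPM in the BLA and 64.3, 49.7, 47.0 and 58.0 TPM in the GC (difference 1.48 ± 0.23, limma adjusted p = 0.0023). The alpha subunit Gabra5 was higher in the GC, where it had 157 to 179 TPM against 27.1 to 63.1 TPM in the BLA (difference −1.76 ± 0.26, limma adjusted p = 0.0016). Gabrd, the delta subunit of extrasynaptic receptors, had 8.17 to 13.9 TPM in the BLA and 51.8 to 63.6 TPM in the GC (difference −2.45 ± 0.28, limma adjusted p = 0.00032). No group of these 3 genes overlapped.

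Of 29 glutamate receptor genes and auxiliary subunits, 2 were called higher in the BLA and 7 in the GC (1.83% and 6.15% of all genes), but 5 and 3 after median-ratio rescaling. Without GC library 1, 2 or 4 only 3 were called in the GC, and without GC library 1 or 3 only 1 in the BLA. Grm8, a presynaptic metabotropic receptor, had 48.7, 57.5, 60.1 and 57.1 TPM in the BLA and 24.3, 20.8, 17.4 and 22.0 TPM in the GC (difference 1.37 ± 0.24, limma adjusted p = 0.0043). Grm4, a receptor of the same group, went the other way at lower levels, with 0.80 to 2.61 TPM against 9.02 to 16.1 TPM (difference −2.24 ± 0.45, limma adjusted p = 0.0096). The kainate receptor subunit Grik4 was listed at 0 in all BLA libraries and had 18.2, 8.80, 4.66 and 11.2 TPM in the GC (limma adjusted p = 0.0014). The groups of all 3 receptors were apart.

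Receptors for neuromodulators were called in both directions. Of 52 tested, 3 were called higher in the BLA and 15 in the GC (1.83% and 6.15% of all genes) and again 3 and 15 after rescaling (3% and 3.73%). Without BLA library 1 or GC library 2 or 3, 1 was called in the BLA. Beside Htr2a, the serotonin 1A receptor Htr1a had 0.02, 0.02, 0 and 0.01 TPM in the BLA and 14.1, 14.8, 16.7 and 16 TPM in the GC (difference −4.01 ± 0.41, limma adjusted p = 0.00017). The adrenergic receptor Adra1b had 0.07, 0.40, 0 and 2.02 TPM against 11.4, 8.81, 17.6 and 12.3 TPM (difference −3.17 ± 0.50, limma adjusted p = 0.0025). The natriuretic peptide receptor Npr3 had 0 to 1.77 TPM against 14.1 to 22.0 TPM, and Ntsr1, the neurotensin receptor of deep cortical layers, had 0 to 0.78 TPM against 5.41 to 17.3 TPM (difference −3.39 ± 0.49, limma adjusted p = 0.0015). All of these GC levels stood above every BLA library. The cannabinoid receptor Cnr1, named after its values were seen, was higher in the BLA, with 172, 121, 173 and 166 TPM against 85.6, 91.4, 59.9 and 84.8 TPM (difference 0.97 ± 0.20, limma adjusted p = 0.013).

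Among 24 neuropeptide and granin genes, 2 were called higher in the BLA and 5 in the GC (1.83% and 6.15% of all genes), with fewer under other fits (2 and 3 after rescaling, and 3 in the GC without GC library 2 or 3). Grp, gastrin-releasing peptide, had 162, 100.4, 214 and 207 TPM in the BLA and 10, 44.8, 23.7 and 22.2 TPM in the GC (difference 2.83 ± 0.39, limma adjusted p = 0.0012). Adcyap1, which encodes PACAP, had 8.20, 12.7, 10.2 and 12.1 TPM in the BLA and 75.8, 72.3, 67.7 and 61.5 TPM in the GC (difference −2.59 ± 0.26, limma adjusted p = 0.00017). Scg2, a granin of dense-core vesicles, had 78.6, 66.7, 156 and 95.2 TPM against 383, 406, 394 and 343 TPM (difference −2.01 ± 0.23, limma adjusted p = 0.00038). Vgf, a related secretory protein, had 30.8 to 78.4 TPM against 135 to 171 TPM (difference −1.46 ± 0.27, limma adjusted p = 0.0065). The genes described were apart in every library, Grp and Npy toward the BLA and Adcyap1, Scg2 and Vgf toward the GC. They were named for a small p among the called genes, and 17 of the 24 tested were not called.

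Of 53 potassium and HCN channel genes, 0 were called higher in the BLA and 16 in the GC (1.83% and 6.15% of all genes), with a median difference of −0.84. The counts were 1 and 12 after rescaling (3% and 3.73% of all genes), and 10 in the GC without GC library 2. Kcna1 and Kcna2, low-threshold potassium channels of axons, had 38.7 to 66.1 TPM against 111 to 142 TPM (difference −1.35 ± 0.22, limma adjusted p = 0.0035) and 35.4 to 56.0 TPM against 108 to 169 TPM (difference −1.58 ± 0.22, limma adjusted p = 0.0013). Their auxiliary subunit Kcnab3 had 8.59, 2.33, 1.66 and 10.5 TPM in the BLA and 73.1, 69.9, 67.2 and 43.0 TPM in the GC (difference −3.50 ± 0.48, limma adjusted p = 0.0011). Kcnk1, a two-pore potassium channel, had 8.51 to 23.9 TPM against 62.5 to 92.6 TPM (difference −2.44 ± 0.32, limma adjusted p = 0.0008).

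Of 30 sodium and calcium channel genes, 0 were called higher in the BLA and 7 in the GC (1.83% and 6.15% of all genes), 0 and 5 after rescaling. Scn4b, the beta subunit tied to resurgent sodium current, had 0.87, 3.93, 0 and 6.27 TPM in the BLA and 39.6, 45.2, 49.8 and 28.0 TPM in the GC (difference −3.83 ± 0.58, limma adjusted p = 0.0021). The pore-forming Scn1a had 40.9 to 51.0 TPM against 88.0 to 134 TPM (difference −1.24 ± 0.20, limma adjusted p = 0.0033). None of the channels whose values are given here overlapped between the regions.

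Of 52 genes of transmitter release, 3 were called higher in the BLA and 18 in the GC (1.83% and 6.15% of all genes), 3 and 11 after rescaling (3% and 3.73% of all genes), and 31 were not called. Cplx2, a complexin that clamps vesicle fusion, had 59.7, 36.8, 34.6 and 45.8 TPM in the BLA and 348, 321, 339 and 343 TPM in the GC (difference −2.94 ± 0.20, limma adjusted p = 2e-05), with little spread within either region. Tmem163, a zinc transporter of synaptic vesicles, had 4.68 to 16.4 TPM against 81.7 to 136 TPM (difference −3.20 ± 0.36, limma adjusted p = 0.00028). Syn2, a synapsin, was higher in the BLA, with 782, 820, 780 and 855 TPM against 249, 317, 295 and 337 TPM (difference 1.44 ± 0.13, limma adjusted p = 9e-05).

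Of 52 genes for calcium binding and signaling, 9 were called higher in the BLA and 13 in the GC (1.83% and 6.15% of all genes), 10 and 10 after rescaling. Without BLA library 1 or GC library 1, 5 were called in the BLA, and without GC library 2, 8 in the GC. Besides Hpcal1, the BLA side held Necab1, an EF-hand protein, with 193, 166, 340 and 276 TPM against 58.8, 47.6, 34.1 and 49.8 TPM (difference 2.30 ± 0.26, limma adjusted p = 0.00029). It also held the kinase subunit Camk2d, with 324, 207, 233 and 167 TPM against 71.0, 58.9, 86.1 and 86.8 TPM (difference 1.58 ± 0.23, limma adjusted p = 0.0014). Pvalb and Rcan2 were the GC members with the smallest p. Both regions thus had calcium-binding proteins that the other had at a lower level.

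Of 24 cytoskeleton genes, 2 were called higher in the BLA and 8 in the GC (1.83% and 6.15% of all genes), but 3 and 3 after rescaling. Without GC library 1, 3 or 4 the GC count was 4, 5 and 5, and without BLA library 1, 2 or 3 or GC library 1, 2 or 4 the BLA count was 1. Ina, a neurofilament-like intermediate filament, had 52.6 to 73.0 TPM in the BLA and 140 to 179 TPM in the GC (difference −1.21 ± 0.19, limma adjusted p = 0.0023). Tmsb10, an actin-sequestering thymosin, went the other way, with 1427, 1120, 1515 and 1458 TPM against 658, 773, 943 and 850 TPM (difference 0.78 ± 0.14, limma adjusted p = 0.0065).

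**Figure D4:**
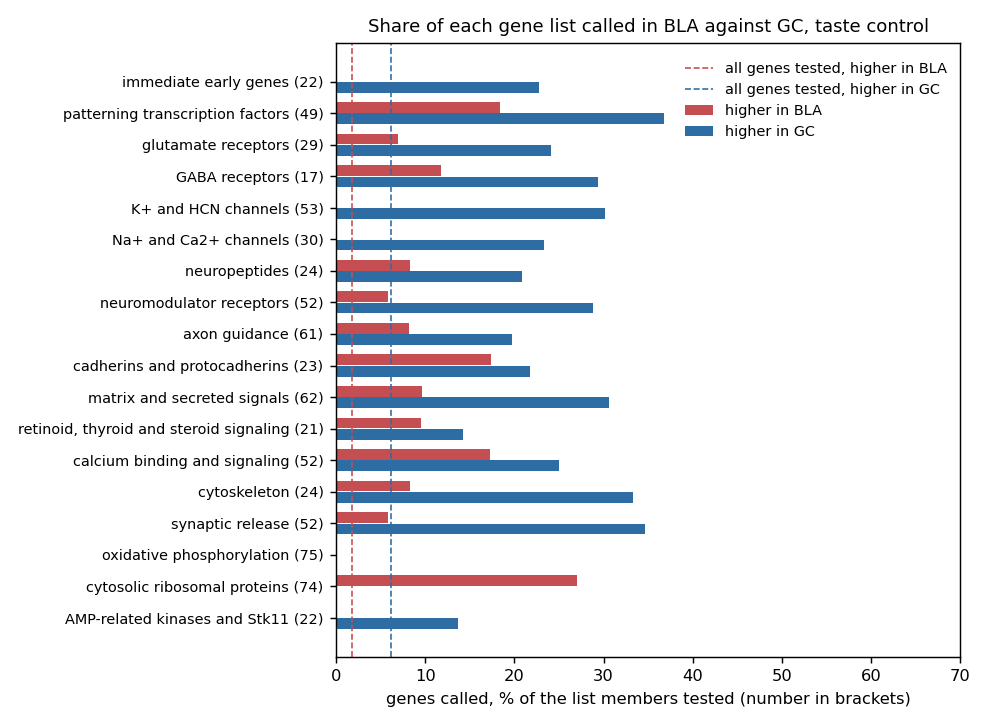
Share of the tested members of each gene list (number tested in brackets) called higher in the BLA (red bars) or higher in the GC (blue bars), in percent. Dashed lines mark the same shares over all 15085 genes, 1.83% and 6.15%, and among the lists shown the ribosomal proteins alone have calls toward the BLA and none toward the GC.

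Genes for cytosolic ribosomal proteins had small differences, nearly all above 0. Of 74 tested, 73 had a difference above 0 and 20 were called higher in the BLA (1.83% of all genes), with a median of 0.41 against −0.25 over all genes, and 35 were called after median-ratio rescaling (3% of all genes). Rpl21, of the large subunit, had 512, 459, 484 and 421 TPM in the BLA and 232, 282, 272 and 285 TPM in the GC (difference 0.81 ± 0.14, limma adjusted p = 0.0037), and Rps26, of the small subunit, had 1099, 1121, 882 and 927 TPM against 399, 636, 653 and 572 TPM (difference 0.85 ± 0.17, limma adjusted p = 0.0091). The count depended on the fit, with 14 called under quantile normalization, 7 without the filter on low values, 5 with the replicate number as a block and 0 without a trend in the variance. It was 6 without library 3 of both regions, 8, 12, 17 and 22 without BLA library 1, 2, 3 or 4, and 6, 9, 13 and 12 without GC library 1, 2, 3 or 4. After CTA 11 were called higher in the BLA. Many ribosomal protein genes have near-identical pseudogenes, with which the counting could have shared reads. Of 13 heat shock genes, 1 (Hspe1) was called higher in the BLA, and 0 without BLA library 3 or 4 or any GC library. Of 75 genes of oxidative phosphorylation, limma called 0 in either direction (1.83% and 6.15% of all genes), and their median was 0.05. After median-ratio rescaling 2 were called higher in the BLA (3% of all genes) and the median was 0.30. Over all genes with a mean of 100 TPM or more the median before rescaling was −0.04. The median exon length was 3612 bases for genes higher in the BLA, 5198 for genes higher in the GC and 4372 over the 90.7% of genes that the annotation covers. In the quartile of shortest exon length, 90 of 3422 genes were called higher in the BLA and 149 in the GC. In the quartile of longest exon length, 60 and 300 of 3422 were. The part of length in the ribosomal result and in those of the other lists was not tested.

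Of 22 immediate early genes, 5 were called higher in the GC and 0 in the BLA, against 6.15% of all genes higher in the GC. After rescaling 2 were called in the GC, where 3.73% of all genes were. The GC count was 3 without BLA library 1 or without GC library 2, 3 or 4, and 2 without GC library 1. Egr1, a zinc finger factor, kept its call in all of these, with 114, 124, 127 and 181 TPM in the BLA and 323, 433, 319 and 359 TPM in the GC (difference −1.40 ± 0.18, limma adjusted p = 0.0008). The other was Nr4a2. Egr3, Arc and Homer1 were the 3 not called after rescaling (limma adjusted p there = 0.054, 0.075 and 0.13). Fos had 17.3, 5.78, 8.64 and 16.4 TPM against 30.2, 38.1, 16.9 and 22.7 TPM, with overlap, and was not called (limma adjusted p = 0.12).

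Stk11, the kinase that the study followed in the BLA, overlapped between the regions, with 37.4, 32.7, 38.9 and 27.3 TPM in the BLA and 45.1, 24.0, 31.6 and 50.2 TPM in the GC (difference −0.10 ± 0.29, limma adjusted p = 0.88). Of 22 genes tested from a list of Stk11 and genes related to AMP kinase, 3 were called higher in the GC and 0 in the BLA (6.15% and 1.83% of all genes). The list is wider than the kinases that the study places downstream of STK11. After rescaling 1 was called in the GC, a share near the 3.73% of all genes. That gene was the salt-inducible kinase Sik2, with 7.41 to 16.4 TPM against 21.9 to 52.4 TPM (difference −1.75 ± 0.37, limma adjusted p = 0.013), and it was no longer called without GC library 1 or 2 (limma adjusted p = 0.0587 and 0.0605). With GC library 1 or 2 left out 0 of the list were called, and with BLA library 2 or GC library 3 or 4 left out 1. Nptx2, a secreted neuronal pentraxin, had 23.6 to 26.4 TPM against 21.5 to 36.0 TPM and was not called (limma adjusted p = 0.72).

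The libraries of CTA mice gave the same comparison in samples that the taste control does not share. Of 15077 genes, 994 (6.59%) were called there, 258 (1.71%) higher in the BLA and 736 (4.88%) in the GC. Of the 276 genes higher in the BLA of taste control mice, 273 were tested after CTA, 267 differed in the same direction and 155 were called that way. These are 56.2% of the taste control calls and 60.1% of the CTA calls. Of the 927 higher in the GC, 913 were tested, 898 had the same direction and 458 were called that way, 49.4% of the taste control calls and 62.2% of the CTA calls. No gene was called in opposite directions. The median difference of the genes called higher in the BLA was 1.40 in taste control and 1.09 after CTA. For those called higher in the GC it was −1.89 and −1.36. Over all genes the medians were −0.25 and −0.22, and the share of all genes that kept their direction was not computed.

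**Figure D5:**
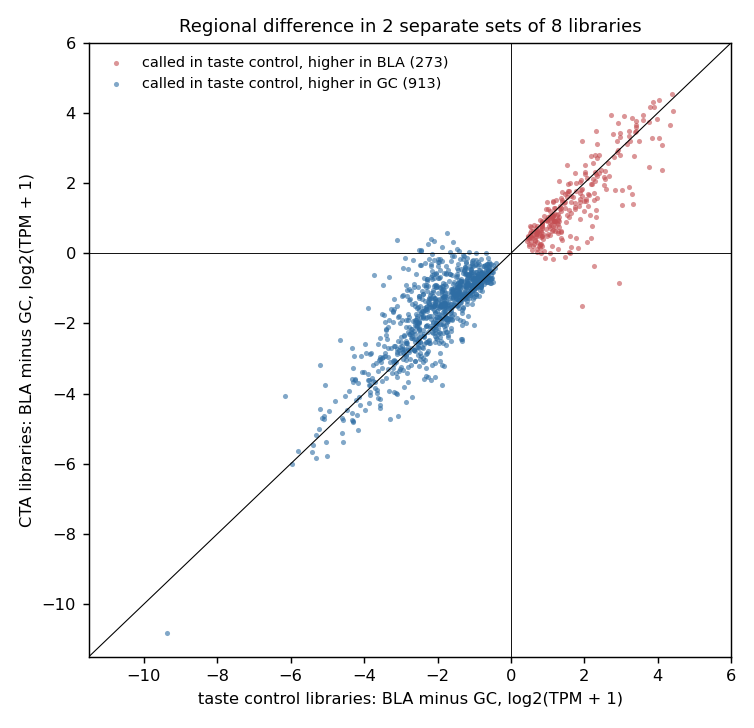
BLA minus GC on the log2(TPM + 1) scale in the taste control libraries (x axis) and in the CTA libraries (y axis), for the genes called in taste control and tested in both, red for the 273 higher in the BLA and blue for the 913 higher in the GC, with the line of equal differences. Most points keep their side of 0 (267 of 273 and 898 of 913), and Hic2 is the point farthest to the lower left.

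Among the genes described here, the differences after CTA were close for Lypd1 (3.83), Cyp26b1 (4.35), Etv1 (2.72), Cplx2 (−2.82) and Rgma (−4.60), all called there too. They were smaller and not called for Mir670 (2.36, limma adjusted p = 0.17), Npy (0.42, limma adjusted p = 0.69), Grm8 (0.64, limma adjusted p = 0.37), Egr1 (−0.87, limma adjusted p = 0.082) and Rpl21 (0.27, limma adjusted p = 0.43). Stk11 differed by −1.30 after CTA (limma adjusted p = 0.04). Whether a regional difference changed with training was tested by the interaction over all 16 libraries, in which limma called 0 of 15191 genes. There 601 genes had an unadjusted p under 0.05, with a smallest adjusted p of 0.9995.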

How the data were processed

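The authors sorted YFP+ neurons by hand, made libraries of amplified cDNA from total RNA, and turned uniquely mapped reads into expression values. The submitters' processing notes name TopHat and the build mm10, and versions are not given in the sources used here. The deposited tables, 1 per region, hold TPM for 31469 entries, so the read depth of each library is unknown. The paper gives only a usual range of unique reads. The authors' columns of group means, fold changes and test p-values were not used, and 0 sample columns were left unmapped. Names on more than 1 entry (318 names, 767 entries) were kept apart, and 27 names had been turned into dates.

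Entries whose TPM averaged 1 or more over the 8 libraries were compared on log2(TPM + 1) with limma 3.58.1 (R 4.3.3, trended variance) and Benjamini-Hochberg adjustment over all of them. The script was tested on simulated data. Named genes were the 12 with the largest differences each way (called, at least 30 TPM in the higher region, no overlap), up to 5 called genes of each of 31 lists with the smallest p, the 4 most abundant members of marker lists, and Thy1, Fos, Stk11, Nptx2 and Hic2. Of the other genes named, Neurod6, Rspo2, Bcl11b, Foxp2, Tle4, Gad1, Slc32a1, Gfap, C1qa, Pou3f2, Pou3f3, Nfia, Nfib, Cnr1, Otof and Rprm were chosen after their values were seen. Members and lists were chosen with earlier results of these data known. Gene positions came from GENCODE on GRCm38, which matched 90.7% of the genes, and upstream sequences from RefSeq on GRCm38.p6. The labels describe groups of 4 mice, but no label ties a library to a mouse, so p-values measure the spread between these samples. Alternatives covered the pseudocount, the filter, the scaling, the variance model, each library left out and the replicate number as a block. Results for some genes are not reported here.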

Additional observations from a re-analysis of the deposited data

Results flagged for a closer look

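Of 233 groups of 4 libraries checked, 28 had a library far from the other 3. For normally distributed values, chance alone gives about 1 in 20 such groups (11.7 of 233). The check was made on TPM and included groups near 0, so that rate need not hold here. In the BLA the distant library was low for Lypd1 (library 3, 430.4 TPM), Rasl11a (library 4, 29.53 TPM), Fezf2 (library 3, 51.1 TPM), Ina (library 2, 52.6 TPM) and Cnr1 (library 2, 120.9 TPM). It was high in BLA library 1 for 2610017I09Rik (3 TPM), Pou3f1 (0.09 TPM), Gpr6 (0.52 TPM), Aldoc (33.81 TPM), Robo3 (0.12 TPM), C1qa (1.66 TPM) and Pou3f3 (3.83 TPM). It was high in BLA library 2 for Bcl11a (16.58 TPM), Reln (2.18 TPM) and Cdh12 (3.98 TPM), in BLA library 3 for Gabrd (13.94 TPM) and Col6a1 (7.03 TPM), and in BLA library 4 for Ntsr1 (0.78 TPM), Cdh6 (0.31 TPM) and Foxp2 (0.56 TPM). In the GC it was high in library 1 for Tmem255a (11.81 TPM), Robo3 (23.58 TPM) and Slc32a1 (2.61 TPM), in library 2 for Col6a1 (62.59 TPM) and Gfap (12.95 TPM), in library 3 for Grm4 (16.07 TPM), and in library 4 for Rasl11a (22.73 TPM) and Dkk3 (413.8 TPM).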

How the results depend on the processing

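The number of genes called, 1203 in the report, was 666 (468 higher in the GC) with a mean of at least 30 TPM, 777 (586 in the GC) without replicate 3 of both regions, and 580 (145 and 435) when a call needed a fold of 2 in means, 30 TPM in the higher region and p (not adjusted) under 0.01. Median-ratio scaling called 452 in the BLA and 562 in the GC, quantile normalization 602 in the GC, and a fit with no trend 180 in the BLA. With 1 library left out the calls numbered 677 to 1126, those in the BLA 168 to 283 and those in the GC 509 to 883. After CTA, 498 (159 and 339) were called at 30 TPM and 400 in the BLA under median-ratio scaling, and with 1 library left out 535 to 1113 were, 140 to 277 in the BLA and 390 to 836 in the GC. The setting without replicate 3 was chosen after seeing the data.

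With the replicate number as a block, 750 genes (175 and 575) were called, and 642 (159 and 483) after CTA. Libraries of the same number did not deviate together (r from −0.09 to 0.01), so they were not treated as pairs.

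Of 102 called genes named in the text and followed under the alternatives, 86 were called under every alternative that tested them. Some filters left some of these genes untested. Most were named for large differences or small p, so this share does not stand for all called genes. Some called genes that the text names within lists were not followed. Of these, Mbp, Trem2, Ly6c1 and Hspe1 lost their call in at least 1 fit with 1 library left out, and Itm2a, Rbp4 and Rora did not. Quantile normalization gives Thy1, the most abundant gene of each library, a difference of 0. Genes that were not called crossed 0: under median-ratio scaling Slc17a7 (0.0165), Dkk3 (0.0130), Stk11 (0.152), Nptx2 (0.0550), Neurod6 (0.158) and Tle4 (0.0701), and under quantile normalization Stk11 (0.0677), Nptx2 (0.0123) and Tle4 (0.0596). Without replicate 3 of both regions Ldb2 (−0.0752) and Neurod6 (0.0308) crossed, and with 1 library left out the differences ran from −0.0491 to 0.207 for Ldb2, −0.0211 to 0.156 for Crym, −0.178 to 0.349 for Cux2, −0.291 to 0.0541 for Stk11 and −0.353 to 0.0302 for Neurod6. The causes were not tested. The read depth of each library is unknown and 4 libraries per region limit the precision.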
